A study of Mus musculus with 57 samples.

Results

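The genes described here are 10 members of Nodal and BMP signalling, chosen by name. They are the ligands Nodal, Bmp2 and Bmp4, the secreted inhibitors Lefty1, Lefty2, Cer1 and Nog, and the target genes Id1, Id2 and Id3. Their Ensembl identifiers were matched to these symbols with GENCODE M21, and all 10 were found among the 55450 genes counted. Bulk RNA-seq was carried out on 57 libraries of mouse embryonic stem cells of the Sox1-EGFP/FoxA2mCherry line, in 19 conditions with 3 libraries each. The line is 1 clone, made from 46C cells, in which EGFP reports Sox1, by joining mCherry to the end of FoxA2. D0 cells were kept in serum with LIF and sorted as Sox1-FoxA2-. The cells were then moved to N2B27 medium with retinoic acid (RA), and on D2, D4 and D6 the populations Sox1-FoxA2-, Sox1-FoxA2+, Sox1+FoxA2- and Sox1+FoxA2+ were sorted. Progeny were cells gated at D2 as Sox1-FoxA2+, Sox1+FoxA2- or Sox1+FoxA2+, replated in serum medium without LIF but with RA, and harvested at D4 or D6 without a further sort, so a progeny label gives the gate of the founding cells. All conditions other than D0 therefore received RA, and replating, serum and the lack of a second sort cannot be told apart in any comparison of progeny with sorted cells.

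Nodal is a ligand of the TGF-beta family that signals through activin receptors and SMAD2 and SMAD3, keeps the pluripotent epiblast in its state and patterns mesendoderm. Lefty1 and Lefty2 are Nodal targets whose products inhibit Nodal, and Cer1 encodes a secreted inhibitor of Nodal and BMP made by anterior visceral and definitive endoderm. Bmp2 and Bmp4 encode ligands that signal through SMAD1 and SMAD5, Noggin (Nog) binds them outside the cell, and Id1, Id2 and Id3, inhibitors of basic helix-loop-helix factors, are direct BMP targets that in serum-grown embryonic stem cells help hold back neural fate.

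Levels are given as normalized counts, the reads counted for a gene divided by the size factor of its library, over libraries of 10170632 to 81845651 counts (median 36694379). Between 14458 and 27832 genes were detected per library. The fewest were in D6 Sox1+FoxA2+ replicate 2, which was at 0 for 7 of the 10 members. The mCherry gate matched the Foxa2 transcript at D2, with 3241, 3057 and 1646 in Sox1-FoxA2+ libraries and 308, 324 and 0 in Sox1+FoxA2- libraries. D6 Sox1+FoxA2+ libraries had Foxa2 levels of only 0, 728 and 76.6, and progeny of Sox1+FoxA2- cells reached 205, 205 and 264 at D6. Sox1 was listed at 0 in all 57 libraries, so the Sox1 gate could not be checked on its own transcript. In bulk libraries fewer cells of a type and less RNA per cell cannot be told apart.

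On GRCm38, Nodal lies at chr10:61417972-61425338 on the plus strand, Lefty2 at chr1:180893108-180899103 and its neighbour Lefty1 at chr1:180935022-180938400, both on the plus strand, and Cer1 at chr4:82881751-82885148 on the minus strand. Bmp2 is at chr2:133552159-133562885 (plus), Bmp4 at chr14:46383520-46390669 (minus) and Nog, a gene of 1 exon, at chr11:89300638-89302332 (minus). Id1 is at chr2:152736251-152737410 (plus), Id2 at chr12:25093799-25097140 (minus) and Id3 at chr4:136143497-136145755 (plus). Of the 50-base words in Lefty1 exons, 17.9% also occur in Lefty2, and 11.95% of those in Lefty2 occur in Lefty1, so reads could be split between the pair and their separate levels are uncertain. Antisense genes overlap 89 of the 2248 exon bases of Bmp4.

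Promoter windows of RefSeq (GRCm38.p6, the 250 bases before a transcript start) were held for 5 of the 10 members, Nodal, Cer1, Bmp4, Id2 and Id3. They were searched on both strands for GGCGCC, a GC-rich word of SMAD1 and SMAD5 sites in Id genes, for CAGAC, the SMAD box, and for AATCCACA, a FOXH1 word, none of which contains another. GGCGCC was found in the Id2 window and in 9.59% of 32851 windows of the same length. CAGAC was found in the windows of Cer1 and Id3 and in 42.2% of all windows, and AATCCACA in none of the 5 and in 0.718% of all. The Id3 window overlaps annotated Id3 exons, its first base included, so its CAGAC matches may lie in exons, which was not determined. The upstream stretch of the Id2 window that lies outside annotated exons (chr12:25096254-25096342, minus strand) and the whole Nodal window (chr10:61417722-61417971, plus strand) are shown 5′ to 3′, since Id2 and Nodal stand for the target and the ligand side of the results, with GGCGCC in capitals. The next base of the Id2 window lies in an annotated Id2 exon, and the stretch shown lies within the annotated span of Id2.
Id2: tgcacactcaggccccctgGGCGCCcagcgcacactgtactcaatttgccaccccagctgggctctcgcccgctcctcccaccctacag
Nodal: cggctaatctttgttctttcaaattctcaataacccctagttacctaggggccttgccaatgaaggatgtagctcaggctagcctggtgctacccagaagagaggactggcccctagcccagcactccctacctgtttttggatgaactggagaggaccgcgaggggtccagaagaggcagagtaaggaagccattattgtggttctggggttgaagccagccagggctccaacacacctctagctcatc

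Nodal was highest in D0 cells and lower in nearly every later library. The D0 libraries had Nodal levels of 1946, 1129.9 and 992. At D2 the levels were 412, 606 and 594 in Sox1-FoxA2- cells, 14.5, 382 and 728 in Sox1-FoxA2+ cells, 105, 322 and 338 in Sox1+FoxA2- cells and 0, 1009 and 1127 in Sox1+FoxA2+ cells, the last spanning from no read to the D0 range. D0 was the group of highest mean in the order of the 19 conditions, and its libraries overlapped those of D2 Sox1+FoxA2+ cells. Over all sorted libraries the median was 1129.9 before RA (D0), and then 397 (D2), 156 (D4) and 127 (D6). Differences are given as log2 fold changes from edgeR's quasi-likelihood test, with p-values adjusted over all genes tested by the Benjamini-Hochberg method, and were called at an adjusted p under 0.05. In the test of D2 Sox1-FoxA2- against D0, the difference of -1.32 on the log2 scale (SE 1.30) had an adjusted p of 0.74. Libraries spread widely within later groups, for example 119, 0 and 864 in D4 Sox1+FoxA2+ cells, and Nodal passed the test in no comparison of all libraries.

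In the progeny Nodal was low throughout. The 9 progeny libraries of D4 ranged from 0 to 166 (median 53.4) beside 0 to 864 (median 46.1) in the 9 sorted libraries of the same gates, and those of D6 from 0 to 268 (median 60.4) beside 0 to 573 (median 121). These ranges overlapped at both days. The differences were -1.20 (SE 1.21, adjusted p = 0.60) at D4 and -1.38 (SE 1.25, adjusted p = 0.51) at D6. The D6 difference was called in 1 of 3 leave-outs, that without replicate 2 of each group (-4.18, adjusted p = 0.036). Without replicate 3 its adjusted p was 0.9998.

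In several later sorted populations the mean of Lefty1 or Lefty2 passed that of D0, which the mean of Nodal did in none. Libraries still moved partly together. Pearson's r of log2 levels over the 57 libraries was 0.47 for Nodal with Lefty1 and 0.42 for Nodal with Lefty2. Lefty2 was at 1283, 780.5 and 549.8 in D0 cells, Lefty1 at 12.4, 523 and 232. Among D2 cells, Sox1-FoxA2+ libraries held 0, 2118 and 1916 for Lefty2 and 1.81, 2146 and 940.3 for Lefty1, so that replicate 1 was at or near 0 for both genes while replicates 2 and 3 were above the D0 range for both. The genes were lowest among sorted D4 cells in Sox1-FoxA2+ cells, with Lefty1 at 3.70, 98.1 and 23.8, against 1283, 308 and 2359 in Sox1+FoxA2- cells. D4 Sox1-FoxA2- cells were at 697, 375 and 522, and D4 Sox1+FoxA2+ cells at 156, 0 and 267. The Sox1-FoxA2+ and Sox1+FoxA2- groups did not overlap for Lefty1, yet the difference of -4.79 (SE 1.51) had an adjusted p of 0.45.

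At D6, Lefty2 was at 132, 32.7 and 2.86 in Sox1-FoxA2+ cells, 2054, 459.6 and 1542 in Sox1+FoxA2- cells, 681, 388 and 401 in Sox1+FoxA2+ cells and 443, 151 and 111 in Sox1-FoxA2- cells. The Sox1-FoxA2+ libraries were below every Sox1+ library of that day. The difference between Sox1-FoxA2+ and Sox1+FoxA2- cells was -4.28 (SE 1.27, adjusted p = 0.14), and a DESeq2 fit of the same counts gave an adjusted p of 3.8e-04, where the median difference over all genes was -0.30. Same-numbered libraries of these groups deviated together (r = 0.142 to 0.232), and with the replicate block the difference was -4.85 (SE 1.37, adjusted p = 0.045). From D2 to D6 the Lefty2 difference within Sox1-FoxA2+ cells was -4.61 (SE 1.65, adjusted p = 0.29). Lefty1 was at 1677, 465 and 1489 in D6 Sox1+FoxA2- cells and at 120.1, 138 and 424 in Sox1-FoxA2+ cells.

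Both Lefty genes fell in the D6 progeny. The 9 sorted D6 libraries of the 3 gates ranged from 0 to 1677 for Lefty1 (median 424) and from 2.86 to 2054 for Lefty2 (median 401). The 9 progeny libraries of D6 reached at most 40.0 for Lefty1 (median 14.0) and 76.9 for Lefty2 (median 0). The sum of both genes, which a split of shared reads between them would not change, was 0, 54.4 and 32.3 in Sox1-FoxA2+ progeny, 14.0, 0 and 117 in Sox1+FoxA2- progeny and 0, 17.1 and 15.1 in Sox1+FoxA2+ progeny, against 3731, 925 and 3030.3 in sorted D6 Sox1+FoxA2- cells. Averaged over the 3 gates, progeny minus sorted was -4.92 for Lefty1 (SE 1.11, adjusted p = 0.0041) and -5.58 for Lefty2 (SE 1.13, adjusted p = 0.0017). Of the 10 members tested, these 2 and Id1 and Id3 passed the threshold of adjusted p under 0.05, 4 of 10, in a comparison in which 14% of all 25515 genes tested did. The median difference was 0.61 over the members and -0.21 over all genes. Without the library of few detected genes the same 4 members passed, at -4.41 for Lefty1 and -5.53 for Lefty2. Leaving out replicate 1 of each group ended the Lefty2 call (adjusted p = 0.068), and leaving out replicate 3 the Lefty1 call (adjusted p = 0.071). The fit took all libraries as independent. Same-numbered libraries of different gates deviated together in part (r = 0.098 to 0.473 in D6 progeny, 0.0010 to 0.233 in sorted D6 cells). The SEs, adjusted p and share of all genes called may therefore overstate the differences.

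At D4 Lefty2 was listed at 0 in all 3 libraries of Sox1-FoxA2+ progeny, at 0, 0 and 58.9 in Sox1+FoxA2- progeny and at 12.8, 0 and 273 in Sox1+FoxA2+ progeny. The 9 sorted D4 libraries ranged from 0 to 1260 (median 198), so the ranges overlapped while the progeny median was 0. The mean difference over the 3 gates was called (-5.50, SE 1.39, adjusted p = 0.017), a size that depends on the prior count because 1 progeny group held no read. Without replicate 1 of each group the adjusted p was 0.052. As at D6, the fit took same-numbered libraries of different gates as independent, so the SE may be too small. Lefty1 differed by -2.63 (SE 1.10, adjusted p = 0.15). Lefty2, Id1, Id2 and Id3, 4 of 9 members, passed at D4, where 7.01% of 24857 genes did, with a median of 0.76 over the members and -0.21 over all genes. A pluripotency list of 7 genes summed to 3582 to 18248 in the sorted D6 libraries of the 3 gates and to 1655 to 13117 in D6 progeny; its part in the Lefty difference was not tested.

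**Figure D1:**
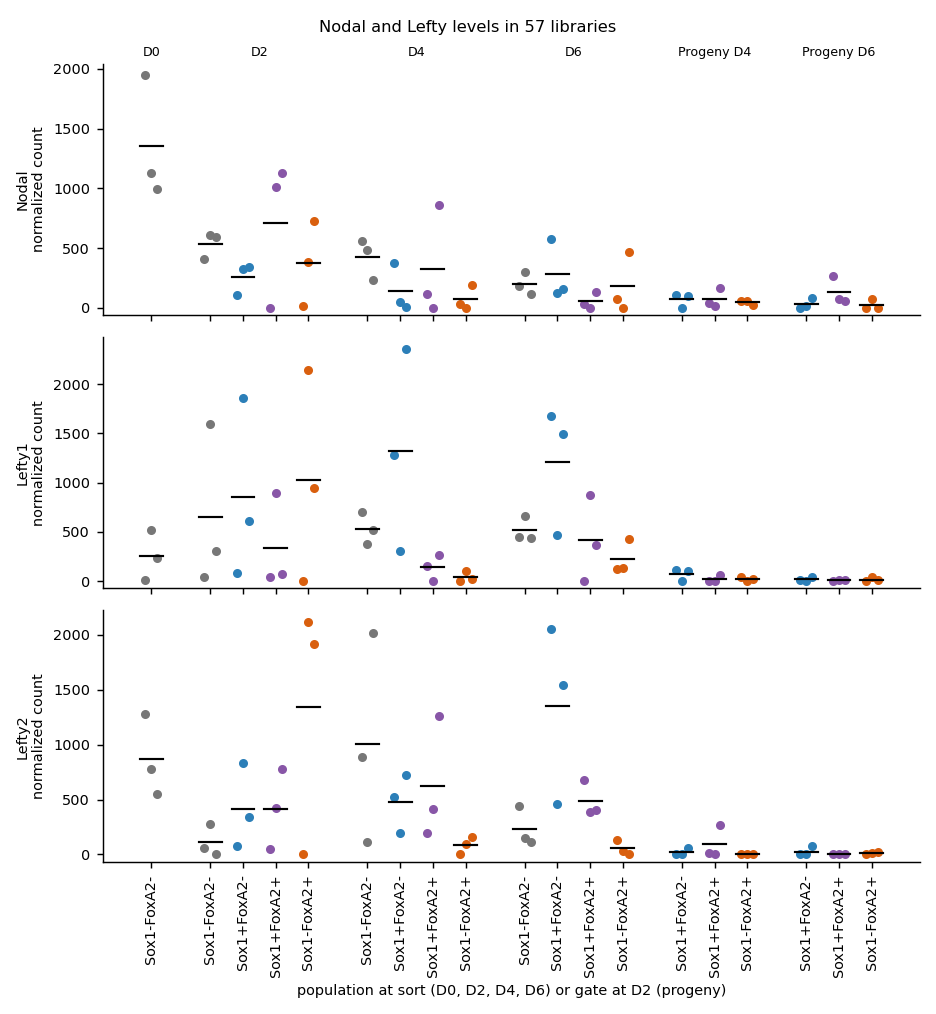
Normalized counts (vertical axes, linear) of Nodal, Lefty1 and Lefty2 in each of 57 libraries (points) by population and day (horizontal axis), with the mean of 3 libraries as a black line and colours marking the gate. Nodal is highest in D0 cells, and the 9 D6 progeny libraries lie at or below 40.0 for Lefty1 and 76.9 for Lefty2.

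Within single gates the tests of progeny against sorted cells made 1 call, Lefty2 in Sox1+FoxA2+ cells at D6, where 2.17% of all genes were called. Sorted libraries were at 681, 388 and 401 and progeny at 0, 1.90 and 0, groups that did not overlap. The fitted difference was -9.00 (SE 2.3004, adjusted p = 0.038), but with 2 progeny libraries at 0 its size is poorly fixed, and the call was lost without replicate 1 or replicate 3 and with a replicate block (adjusted p = 0.051). At D6 edgeR called 0 of 10 members in each of the other gates, with 2 at an unadjusted p under 0.05 in each. Of all genes, edgeR called 0.145% for the Sox1-FoxA2+ gate and 3.31% for Sox1+FoxA2-. DESeq2 called 1 and 2 members in these gates, and its own share of all genes is not given here. At D4 edgeR called 0 of 9 members in any gate, with 4, 1 and 3 at an unadjusted p under 0.05 for Sox1-FoxA2+, then Sox1+FoxA2-, then Sox1+FoxA2+ cells. In that order edgeR called 0.145%, 0.523% and 1.19% of all genes. DESeq2 called 1, 0 and 2 members, again without its own share of all genes. No member passed the test of a difference between gates in the progeny effect, with 0 at an unadjusted p under 0.05 and 0 by DESeq2, at D4 (0% of all genes by edgeR) or D6 (0.0196% by edgeR).

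Cer1 was at 0 in 46 of 57 libraries and above 50 in 2, at 52.9 in D6 Sox1-FoxA2+ replicate 1 and 187 in D6 Sox1+FoxA2+ replicate 1. No group had Cer1 reads in all of its libraries. Its mean over libraries, 5.42, is low, and with so few reads no difference in Cer1 was detectable.

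Noggin was the member with the widest range. Nog was at 0 in all D0 libraries and in 10 of 12 D2 libraries, the exceptions being D2 Sox1-FoxA2+ replicates 2 and 3 at 15.7 and 54.8. Among later sorted cells its highest means were in Sox1-FoxA2+ cells, at 113, 349 and 114 at D4 and 222, 605 and 784 at D6. At D6 these libraries lay above all Sox1+FoxA2- libraries (145, 21.5 and 0) and all Sox1-FoxA2- libraries (65.4, 54.3 and 10.96) but overlapped Sox1+FoxA2+ libraries (398, 0 and 765). The D6 difference between Sox1-FoxA2+ and Sox1+FoxA2- cells was 3.36 (SE 2.01, adjusted p = 0.46).

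Bmp2 was at 0, 1.32 and 0 in D0 cells, a mean of under 1 count, and was detected in 9 of 12 D2 libraries at levels up to 272. At D4 it was at 429.8, 989.8 and 367 in Sox1-FoxA2+ cells, above every library of the other 3 gates, whose highest was 326. At D6 the sorted Sox1-FoxA2+ libraries held 1077, 332 and 607 and overlapped the other gates. None of these D4 and D6 differences between gates passed the edgeR test.

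In the progeny of D6, Nog and Bmp2 were both highest in the descendants of Sox1-FoxA2+ cells. Nog was at 731, 4227 and 4421 there, at 294, 143 and 49.2 in Sox1+FoxA2- progeny and at 57.2, 259 and 289 in Sox1+FoxA2+ progeny. All 3 Sox1-FoxA2+ libraries were above the other 6, replicate 1 by the least. Sox1-FoxA2+ minus Sox1+FoxA2- progeny was 4.17 (SE 0.78, adjusted p = 0.0043), and Sox1+FoxA2+ minus Sox1-FoxA2+ progeny was -3.94 (SE 0.77, adjusted p = 0.010). Both Nog calls remained when any 1 library was left out, with adjusted p up to 0.017 and 0.036.

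Bmp2 was at 922, 1906 and 2539 in Sox1-FoxA2+ progeny, 231, 169.7 and 184 in Sox1+FoxA2- progeny and 473, 771 and 379 in Sox1+FoxA2+ progeny, an order with no overlap between any pair of groups. Sox1-FoxA2+ minus Sox1+FoxA2- progeny was 3.14 (SE 0.41, adjusted p = 3.9e-04), the smallest adjusted p of any member in the edgeR tests, and it was kept without any 1 library. Sox1+FoxA2+ minus Sox1-FoxA2+ progeny was -1.73 (SE 0.39, adjusted p = 0.022), which was lost in 4 of 9 leave-outs (adjusted p up to 0.11). Sox1+FoxA2+ minus Sox1+FoxA2- progeny was 1.41 (SE 0.39, adjusted p = 0.28).

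With Id2, these were the 3 members called in each comparison with Sox1-FoxA2+ progeny at D6. Of all genes tested, edgeR called 6.78% against Sox1+FoxA2- progeny (3.49% higher and 3.28% lower) and 4.48% against Sox1+FoxA2+ progeny. Between Sox1+FoxA2+ and Sox1+FoxA2- progeny edgeR called 0 of 9 members, with 1 at an unadjusted p under 0.05, beside 0.152% of genes. DESeq2 called 1 member there. The median difference over the 9 members tested was -0.99, -0.45 and 0.22 in the 3 comparisons, beside -0.04, 0.09 and 0.04 over all genes. When 1 dispersion fit was shared by all 57 libraries, none of the 6 calls remained (adjusted p 0.77 to 0.91). A list of 12 endoderm genes summed to 1015420, 1822600 and 1638670 in Sox1-FoxA2+ progeny, 120369, 117498 and 40368 in Sox1+FoxA2- progeny and 402455, 248314 and 170885 in Sox1+FoxA2+ progeny at D6, with every listed gene detected in each group. The part of endoderm content in the Nog and Bmp2 differences was not tested.

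**Figure D2:**
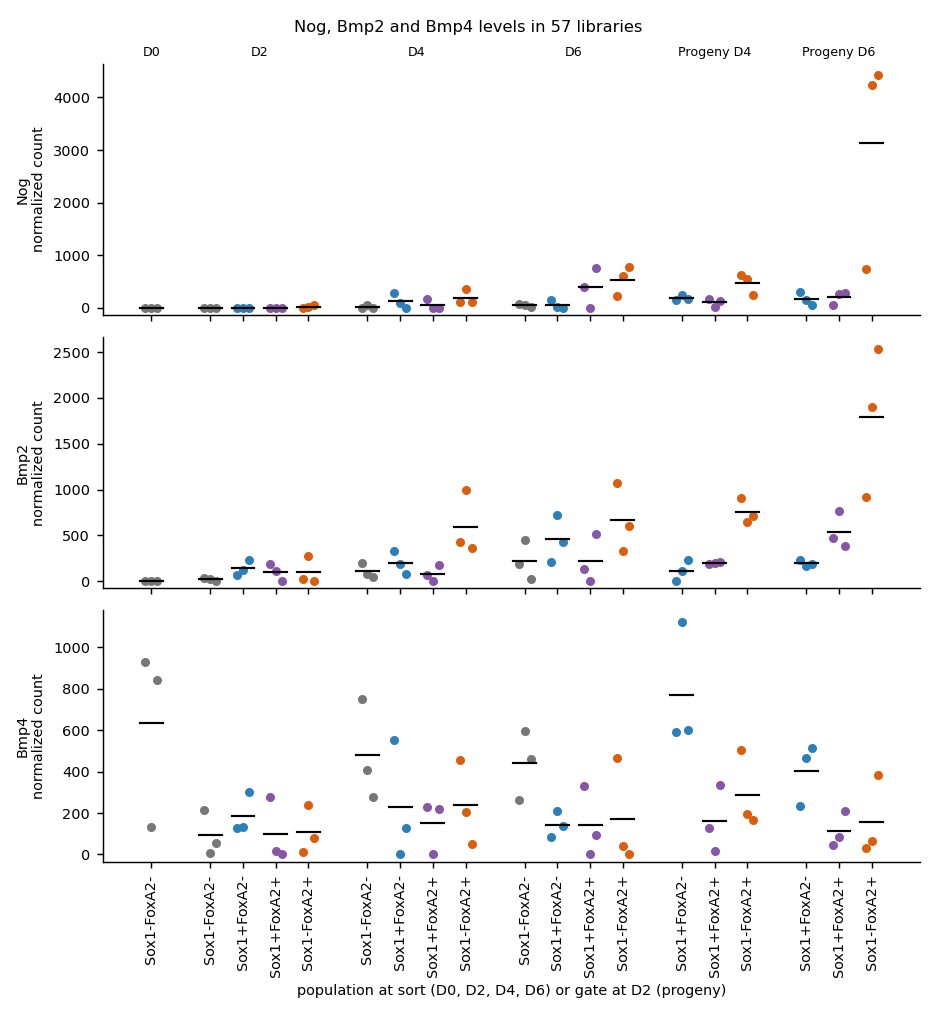
Normalized counts (vertical axes, linear) of Nog, Bmp2 and Bmp4 in each of 57 libraries (points) by population and day (horizontal axis), with the mean of 3 libraries as a black line and colours marking the gate. Nog and Bmp2 reach their highest levels in D6 Sox1-FoxA2+ progeny, whereas Bmp4 does not follow them.

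At D4 the same ligand already stood highest in Sox1-FoxA2+ progeny, with Bmp2 at 907, 643 and 715 against 0, 107 and 235 in Sox1+FoxA2- and 192, 197 and 208 in Sox1+FoxA2+ progeny. Nog was at 623, 551 and 243 in Sox1-FoxA2+ progeny, overlapping Sox1+FoxA2- progeny at 155, 246 and 174. In Sox1+FoxA2+ progeny Nog was at 176, 6.36 and 135, below every Sox1-FoxA2+ library. Replicates of D4 progeny with the same number deviated together, and the fit with the replicate number as a block is given beside the plain fit. For Bmp2, Sox1-FoxA2+ minus Sox1+FoxA2- progeny was 2.64 (SE 0.86, adjusted p = 0.18), and 3.05 (SE 0.83, adjusted p = 0.038) with the block. Of 27 member tests at D4, the plain edgeR fit called 0, with 11 at an unadjusted p under 0.05. It called 1.86%, 0% and 0.768% of all genes in the 3 comparisons. DESeq2 called 5 of the 27, and its share of all genes is not given here. The blocked fit called 5, beside 4.49%, 0.121% and 3.27%. Between progeny and sorted cells neither gene passed the test, with differences of 0.90 at D4 and 1.27 at D6 for Nog (adjusted p = 0.27 at D6) and 0.37 and 0.68 for Bmp2 (adjusted p = 0.47 at D6).

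**Figure D3:**
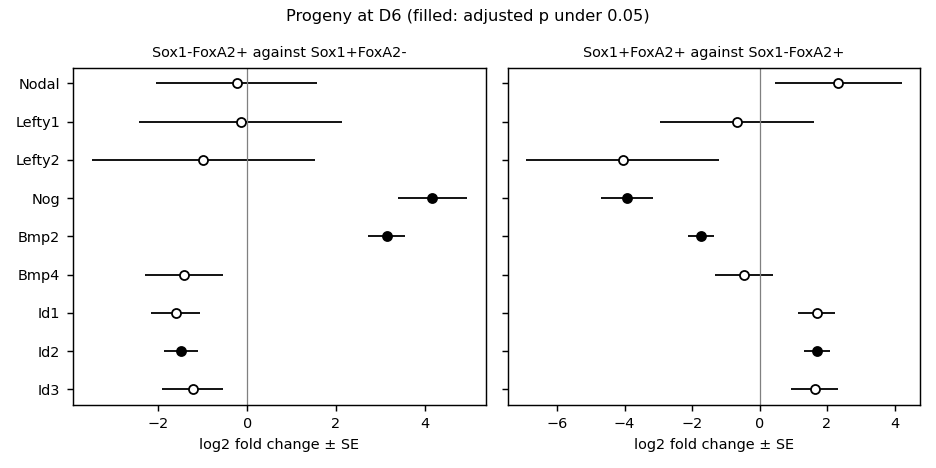
Log2 fold change with its SE (horizontal axes) of 9 members between progeny at D6, on the left Sox1-FoxA2+ against Sox1+FoxA2-, on the right Sox1+FoxA2+ against Sox1-FoxA2+; filled points have an adjusted p under 0.05. Bmp2, Nog and Id2 are filled in both panels, with Id2 opposite in sign to Bmp2 and Nog.

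Bmp4, the ligand already present in D0 cells at 931, 132 and 843, showed another pattern. The median over sorted libraries was 843 at D0 and 104 at D2. In D2 Sox1-FoxA2- cells Bmp4 was at 214, 9.04 and 53.6, and in D2 Sox1+FoxA2- cells at 128, 135 and 302, so D0 replicate 2 lay within the D2 range. Its highest group was D4 Sox1+FoxA2- progeny at 589.7, 1123 and 604, above all Sox1-FoxA2+ (507, 196 and 165) and Sox1+FoxA2+ (128, 16.9 and 336) libraries of the same day. At D6 the progeny held 29.3, 65.7 and 382 for Sox1-FoxA2+, 232, 464 and 516 for Sox1+FoxA2- and 45.2, 83.5 and 211 for Sox1+FoxA2+ cells. The D6 difference of Sox1-FoxA2+ from Sox1+FoxA2- progeny was -1.42 (SE 0.87, adjusted p = 0.47), and Bmp4 was called in no comparison.

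The Id genes were expressed in D0 cells, their medians were lower at D2, and their highest means were in D4 progeny. At D0 the libraries had Id1 levels of 757, 1314 and 405, Id2 levels of 672, 1424 and 657 and Id3 levels of 595, 194 and 492. At D2, Id1 was at 158, 33.6 and 1.85 in Sox1-FoxA2- cells and 76.3, 102 and 2.73 in Sox1+FoxA2+ cells, and both groups lay wholly below D0. Sox1+FoxA2- cells were at 563, 112 and 19.4 for Id1 and Sox1-FoxA2+ cells at 199, 174 and 395. Id3 was at 0, 31.4 and 0 in Sox1-FoxA2+ and 215, 2.24 and 31.8 in Sox1+FoxA2- cells. Id2 was at 965, 942 and 303 in Sox1+FoxA2+ cells, which overlapped D0, and at 404, 159 and 61.0 in Sox1-FoxA2- cells, which lay below it. The median over sorted libraries was 757 at D0 and 107 at D2 for Id1, 672 and 409 for Id2, and 492 and 31.6 for Id3. Against D0, Id1 differed by -3.72 (SE 1.52, adjusted p = 0.20) in Sox1+FoxA2+ cells and by -3.69 (SE 1.52, adjusted p = 0.28) in Sox1-FoxA2- cells, and Id2 by -2.14 (SE 0.85, adjusted p = 0.26) in Sox1-FoxA2- cells. The 4 comparisons share the 3 D0 libraries. Of their 32 member tests, edgeR called 0, with 7 at an unadjusted p under 0.05, beside 2.19 to 3.96% of all genes by edgeR. DESeq2 called 6 of the 32, and its share of all genes is not given here. The median member difference lay between -2.20 (Sox1-FoxA2-) and -1.002 (Sox1+FoxA2+), beside 0 to 0.15 over all genes.

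Among sorted cells of D6, Id1 and Id3 were lowest in Sox1-FoxA2+ cells. Id1 was at 118, 24.0 and 0 in Sox1-FoxA2+ cells, below every library of Sox1+FoxA2- (499, 1336 and 688), Sox1+FoxA2+ (366, 646 and 185) and Sox1-FoxA2- cells (502, 1164 and 148). The difference from Sox1+FoxA2- cells was -3.86 (SE 1.42, adjusted p = 0.30). Id3 was at 0, 0 and 74.4 in D6 Sox1-FoxA2+ cells and at 352, 317 and 141 in Sox1+FoxA2- cells, again without overlap. No comparison of sorted gates called an Id gene by edgeR.

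Across the sorted populations edgeR called 0 of 32 member tests at D2, 0 of 36 at D4 and 0 of 40 at D6. At an unadjusted p under 0.05 there were 0, 5 and 4, and DESeq2 called 0, 1 and 4. At D2 DESeq2 called 261 to 512 of 20369 genes per comparison, beside 0 to 4 by edgeR. The shares of all genes that follow are those of edgeR. At D2 at most 0.0196% of all genes were called in a comparison. At D4, the Sox1-FoxA2+ against Sox1+FoxA2- test called 0.227% of all genes (0.0479% lower), Sox1-FoxA2+ against Sox1-FoxA2- called 0.266% (0.061% lower), Sox1+FoxA2+ against Sox1-FoxA2+ called 0.462%, and the test between the Sox1+ populations called 0%. In that order the D6 tests gave 1.09%, 0.83% (0.554% higher), 0.0454%, all of it higher, and 0.0992%. Between D6 and D2 of the same gate, edgeR called 0 of 40 tests, also without the library of few detected genes. Of the 40, 6 were at an unadjusted p under 0.05, and edgeR called 0.00356 to 0.57% of all genes. DESeq2 called 4 of the 40.

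In the D4 progeny all 3 Id genes rose above sorted cells, and Id1 and Id3 did so at D6. At D4, Id1 was at 676, 1404 and 1466 in Sox1-FoxA2+ progeny against 282, 199.5 and 151 in sorted cells, at 1629, 2271 and 1602 against 1485, 1531 and 351 in Sox1+FoxA2- cells, and at 2160.2, 2909 and 3012 against 825, 1033 and 137 in Sox1+FoxA2+ cells. Progeny were above sorted libraries without overlap in 3 of 3 gates, given as description only, since overlap was not read over all genes. The 9 libraries of each kind spanned 257 to 2423 (median 910.5) in sorted cells and 1285 to 3180 (median 2454) in progeny for Id2, and 87.3 to 2488 (median 181) and 912 to 3170 (median 1284) for Id3. For Id2 and Id3 the ranges overlapped over all gates, with D4 Sox1+FoxA2- replicate 2 the highest sorted library of both. The mean difference was 1.79 for Id1 (SE 0.36, adjusted p = 0.0026), 1.25 for Id2 (SE 0.28, adjusted p = 0.0071) and 1.58 for Id3 (SE 0.49, adjusted p = 0.049). This fit took all libraries as independent. Same-numbered libraries of different gates deviated together (r = 0.305 to 0.596 in D4 progeny, 0.069 to 0.467 in sorted D4 cells), so these SEs and adjusted p may be too small. The Id3 call was lost without replicate 1 (0.26) or 3 (0.24), with DESeq2's size factors (0.055) and with robust dispersions (0.092), all adjusted p. Id2 lost its call without replicate 1 (adjusted p = 0.056) or 3 (adjusted p = 0.14), while Id1 kept it in 3 of 3 leave-outs. For all 3 Id genes the call was lost with all 57 libraries in the fit, where the adjusted p was 0.062 for Id1, 0.10 for Id2 and 0.22 for Id3.

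At D6 Id3 was at 1346, 141 and 147 in Sox1-FoxA2+ progeny against 0, 0 and 74.4 in sorted cells, and at 1528, 831 and 1457 against 352, 317 and 141 for the Sox1+FoxA2- gate. Sox1+FoxA2+ progeny held 1623, 2190.1 and 1419 for Id3 against 245, 0 and 37.6. Progeny were again above sorted libraries in 3 of 3 gates, also given as description only. The mean difference was 3.89 for Id3 (SE 0.84, adjusted p = 0.0030) and 2.31 for Id1 (SE 0.56, adjusted p = 0.0069), and both calls were kept in 3 of 3 leave-outs and without the library of few detected genes (3.80 and 2.60). Id2 differed by 0.76 (SE 0.52, adjusted p = 0.35). Here too same-numbered libraries of different gates were taken as independent, so the SEs may be too small. A list of 6 mesoderm and mesenchyme genes, of which Msgn1 and Mesp1 were mostly at 0, was read beside these differences. Its mean was higher in progeny than in sorted cells of each gate at both days. Single libraries did not always follow the Id genes. In D6 Sox1-FoxA2+ progeny, replicate 1 had the highest Id3 (1346) and the lowest sum of the list (289.6). The list summed to 153.6 to 4659.7 in the 9 sorted D4 libraries and 2704 to 22611 in D4 progeny. At D6 the sums were 98.2 to 3552 in sorted cells and 289.6 to 38185 in progeny. The part of this list in the rise of the Id genes was not tested.

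**Figure D4:**
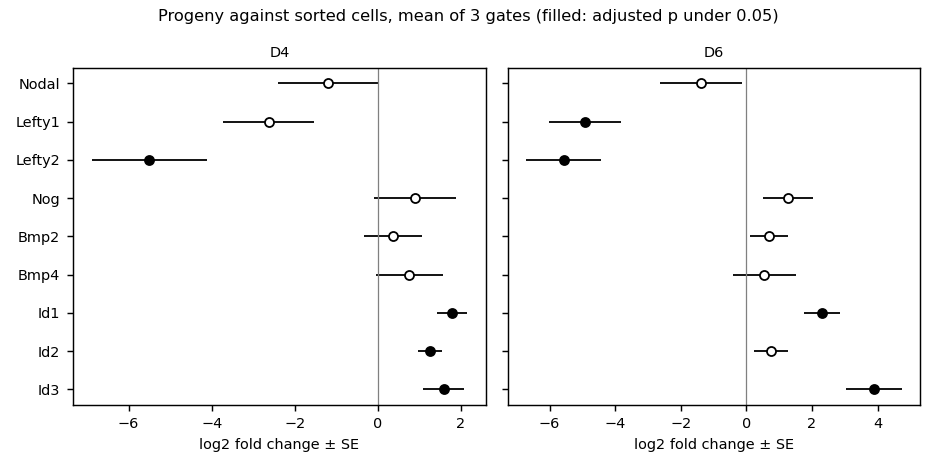
Log2 fold change with its SE (horizontal axes) of 9 members between progeny and sorted cells, averaged over 3 gates, at D4 (left) and D6 (right); filled points have an adjusted p under 0.05. Lefty2 lies below 0 and Id1 and Id3 above 0 at both days, and Lefty1 is filled at D6 and Id2 at D4.

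Among progeny, those of Sox1+FoxA2+ cells had the most Id transcript at D4. Id3 was at 3169.9, 1940.4 and 2651 there, above Sox1-FoxA2+ progeny (943, 912 and 1284) and Sox1+FoxA2- progeny (1629, 1246 and 1066) without overlap. Id2 was at 2454, 3179.7 and 2474 in Sox1+FoxA2+, 2747, 2762 and 2219 in Sox1+FoxA2- and 1347, 1285 and 1614 in Sox1-FoxA2+ progeny. The sum of the 3 genes was 7784, 8029 and 8136 in Sox1+FoxA2+ progeny and 2023, 2932 and 1554 in D0 cells. Sox1+FoxA2+ minus Sox1-FoxA2+ progeny was 1.21 for Id3 (SE 0.29, adjusted p = 0.076), and with the replicate block 1.19 for Id3 (SE 0.26, adjusted p = 0.011), 1.14 for Id1 (SE 0.25, adjusted p = 0.0099) and 0.83 for Id2 (SE 0.22, adjusted p = 0.044). The Id2 difference of Sox1-FoxA2+ from Sox1+FoxA2- progeny was -0.84 (SE 0.26, adjusted p = 0.16), and -0.83 (SE 0.22, adjusted p = 0.034) with the block.

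At D6, Sox1-FoxA2+ progeny had the least Id2, at 389.6, 565 and 524, beside 1106, 801 and 2146 in Sox1+FoxA2- and 966, 1834 and 2042 in Sox1+FoxA2+ progeny, 3 libraries below all others. The difference from Sox1+FoxA2- progeny was -1.48 (SE 0.38, adjusted p = 0.032) and was lost in 5 of 9 leave-outs (adjusted p up to 0.25). Sox1+FoxA2+ minus Sox1-FoxA2+ progeny was 1.70 (SE 0.39, adjusted p = 0.023) and was lost in 3 of 9 (adjusted p up to 0.096). Id1 was at 1148, 196 and 237 in Sox1-FoxA2+ progeny and Id3 at 1346, 141 and 147, so replicate 1 stood with the other gates and replicates 2 and 3 well below. Id1 and Id3 differed from Sox1+FoxA2- progeny by -1.61 (SE 0.56, adjusted p = 0.12) and -1.23 (SE 0.68, adjusted p = 0.41), and without Sox1-FoxA2+ replicate 1 by -2.94 (adjusted p = 6.8e-05) and -3.20 (adjusted p = 4.5e-05). Each gene was called in only 1 of 9 leave-outs, with adjusted p up to 0.30 for Id1 and 0.68 for Id3. The same mesoderm and mesenchyme list summed to 289.6, 4169.6 and 3059.8 in Sox1-FoxA2+ progeny, 23412, 38185 and 13529.7 in Sox1+FoxA2- progeny and 13849.5, 8827 and 7206 in Sox1+FoxA2+ progeny at D6, and its part in the Id differences was not tested.

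**Figure D5:**
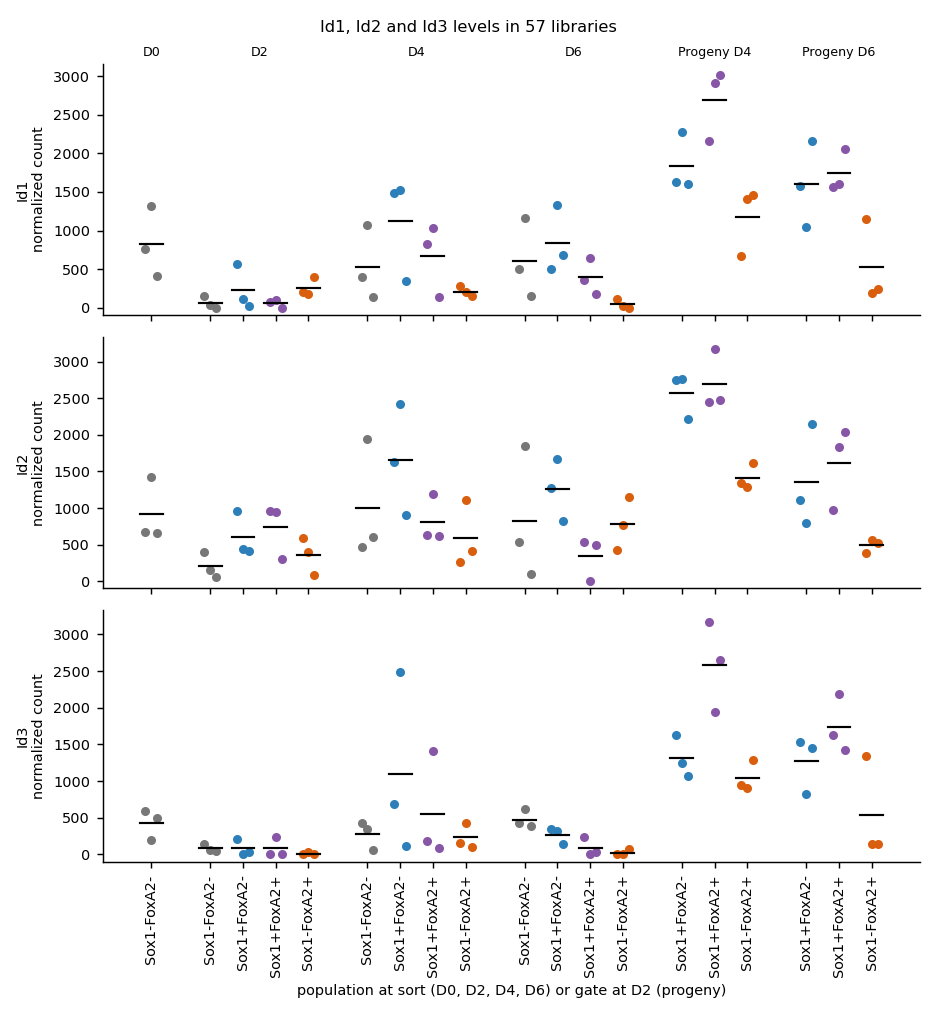
Normalized counts (vertical axes, linear) of Id1, Id2 and Id3 in each of 57 libraries (points) by population and day (horizontal axis), with the mean of 3 libraries as a black line and colours marking the gate. All 3 genes have their highest mean in D4 Sox1+FoxA2+ progeny, and 2 of 3 D6 Sox1-FoxA2+ progeny libraries are low for Id1 and Id3.

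Per kilobase of exon, mean levels in D0 cells were 712 for Id1, 647 for Nodal, 376 for Id2, 334 for Lefty2, 283 for Bmp4, 238 for Id3 and 145 for Lefty1. On the same scale, D6 Sox1-FoxA2+ progeny held 1844 for Nog and 503 for Bmp2, so the inhibitor was above the ligand per length. D4 Sox1+FoxA2+ progeny held 2322 for Id1, 1444 for Id3 and 1108 for Id2. Over the 57 libraries, Pearson's r of log2(normalized count + 1), given as a description of libraries that share days and gates, was 0.68 for Lefty1 with Lefty2, which share sequence, 0.62 for Id1 with Id3, 0.61 for Id2 with Id3, 0.60 for Nog with Bmp2, 0.47 for Nodal with Lefty1 and -0.46 for Lefty2 with Nog. Among 13922 genes of mean level 100 or more, the most alike were Esrrb for Nodal (r = 0.68), Cdkn3 for Lefty1 (0.69), Fancd2 and Trh for Lefty2 (0.73 each), Glipr2 for Nog (0.82), Klb for Bmp2 (0.75), Nit2 for Bmp4 (0.74), Pxn for Id1 (0.75), Zfp553 for Id2 (0.82) and Dpysl3 for Id3 (0.75).

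The same comparisons were read in 55 other genes of the pathways (ligands, receptors, SMADs, proteases and inhibitors). At D6, 5 rose and 4 fell in Sox1-FoxA2+ against Sox1+FoxA2- progeny among 47 tested, where 3.49% of all genes rose and 3.28% fell, with a median difference of 0.08 beside -0.04 over all genes. The inhibitor follistatin (Fst), which binds activins, was at 13139, 33425 and 36909.5 in Sox1-FoxA2+ progeny and 2003, 3004 and 1168 in Sox1+FoxA2- progeny, a difference of 3.69 (adjusted p = 1.2e-04). The extracellular BMP modulator Bmper was at 4398, 13096 and 12624 against 732, 994 and 572 (3.65, adjusted p = 1.3e-04). Another BMP inhibitor, Nbl1, was lower, at 167, 119 and 174 against 560.2, 528 and 541 (-1.87, adjusted p = 0.015), so the inhibitors did not all go with Nog. Among the SMADs, Smad1 (-1.17), Smad5 (-1.06) and Smad3 (-1.15) fell and Smad2 (0.99) rose, and the ligand gene Bmp6 rose (2.67). Sox1+FoxA2+ against Sox1-FoxA2+ progeny had 3 higher and 3 lower, beside 4.48% of all genes called, among them Smad6, an inhibitory SMAD induced by BMP, at 1885, 2750.2 and 906 against 355, 219 and 62.8 (3.08, adjusted p = 0.0068).

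At D4 in progeny, Sox1-FoxA2+ cells had more Bmper, Bmp6 and Fst than Sox1+FoxA2- cells, 3 of 47 with 0 lower, beside 1.86% of all genes called. In sorted cells Fst was at 5569, 8459 and 5345 in D4 Sox1-FoxA2+ cells and 26887, 13332 and 4316 at D6 beside 57.1, 45.8 and 12.8 in D6 Sox1-FoxA2- cells. Sox1-FoxA2+ minus Sox1-FoxA2- was 7.72 at D4 (edgeR, adjusted p = 0.015) and 8.65 at D6 (adjusted p = 0.0015). Sox1+FoxA2+ minus Sox1-FoxA2+ was -6.34 at D4 (adjusted p = 0.035) and was not called at D6. Between Sox1-FoxA2+ and Sox1+FoxA2- cells Fst was called at neither day. Of the D2 sorted comparisons none called any of 46. Tdgf1, the Nodal co-receptor, was at 23420.0, 13340.3 and 19128 in D0 cells and 3.61, 1.97 and 169 in D2 Sox1-FoxA2+ cells, a difference of -8.38, and Bmp7 rose in all 4 D2 populations (3.17 to 4.50).

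Between progeny and sorted cells, 2 of 53 other pathway genes rose and 3 fell at D4, and 8 rose and 2 fell of 52 at D6, with 7.01% and 14% of all genes called. The medians were 0.07 and 0.33 beside -0.21 over all genes at each day. The inhibitory SMAD gene Smad7 rose at both days, by 1.98 (adjusted p = 2.2e-05) and 1.85 (adjusted p = 6.5e-06), as did the proprotein convertase gene Furin, by 1.42 and 1.60. The ligand gene Gdf3 fell at D6 (-7.07) and was at 0 in 8 of 9 progeny libraries, and the convertase gene Pcsk6 fell at both days (-1.30 and -2.63).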

How the data were processed

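RNA-seq counts were deposited by the authors as 1 table of whole reads per gene, not normalized, made with STAR, SAMtools and featureCounts per the labels and methods (versions and strand setting not given in the sources used here) on GRCm38 with GENCODE M21. Libraries came from small samples of cells, sorted at harvest except for progeny, by a SMART-Seq stranded kit, and the labels and methods call the 3 per condition biological replicates. All 57 columns were matched to samples by title, 0 were left unused, and 92 further lines that name no gene hold 0 counts. Most counts are even numbers, so counting intervals would understate the error, and none are given.

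Levels are counts divided by median-of-ratios size factors over 57 libraries, from 8445 genes counted in every library. Tests used edgeR 4.0.16 (R 4.3.3) quasi-likelihood fits on the libraries of each comparison, with TMM scaling, filterByExpr at a minimum count of 10, a prior count of 0.125 and Benjamini-Hochberg adjustment over all genes tested, called at adjusted p under 0.05. Medians, ranges and overlaps were computed in pandas 2.3.3. Alternatives were DESeq2 1.42.0, no filter, DESeq2 size factors, a replicate block, 1 fit of all 57 libraries and leave-outs. Robust dispersions and leaving out the library with few detected genes were added after the data were seen. Replicate numbers were taken to pair libraries among D4 progeny, where the deviations of all 3 pairs of groups correlated (0.305 to 0.596); in each other fit at least 1 pair of groups was at 0.1 or below, and where the 2 groups of a comparison passed, the block changed 1 call, that of Lefty2 at D6. The fits of progeny against sorted cells took all libraries as independent, although same-numbered libraries of different gates deviated together in part. Fits were tested on simulated data with independent libraries.

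All 10 members are named in every comparison that tests them; of 55 other pathway genes, those called are named, at most 3 per list by fold change, except 1 that is not reported here. Members and lists were chosen with earlier results of these data known.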

Additional observations from a re-analysis of the deposited data

Results flagged for a closer look

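The fitted Id1 differences between D2 and D6 had opposite signs in the FoxA2+ populations of sorted cells. In Sox1-FoxA2+ cells its levels were 199, 174 and 395 at D2 and 118, 24.0 and 0 at D6, a difference of -2.41 on the log2 scale (edgeR, adjusted p = 0.44), with every D6 library below every D2 library. In Sox1+FoxA2+ cells its levels were 76.3, 102 and 2.73 at D2 and 366, 646 and 185 at D6, a difference of 2.39 (adjusted p = 0.30), with every D6 library above every D2 library. Neither difference passed the threshold, and the difference between them was not tested. Id1 was picked out from the results because it differed between these groups. The opposite signs and the lack of overlap are therefore description only and give no separate evidence of a change.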

How the results depend on the processing

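Few or no reads limit Cer1, Nog before D4 and Bmp2 at D0, and SDs near the mean limit Nodal and the Lefty genes. With 3 libraries per group, p-values rest on a spread estimated from few libraries, in part shared over genes and over the groups of a fit. For 36 single member differences, some called and some not, no alternative reversed the sign. In 434 alternatives the status, called or not called, stayed as it was, while 33 lost a call and 28 gained one. The 434 include differences that had no call to lose. Without the filter, members called numbered 1 among sorted populations at D2, 1 at D4 and 1 at D6, 4 among D4 progeny, 11 among D6 progeny, 1 between D2 and D0 and 2 between D6 and D2. The number of all genes called also changed with the setting. In the sorted D2 comparisons it was 51 to 204 of 29888 without the filter, 261 to 512 of 20369 by DESeq2 and 0 to 4 of 20369 in the main fit. Member counts under other settings are therefore no measure of a gain or loss of the members alone. DESeq2 gave 1 at D4 and 4 at D6 among sorted populations, 5 among D4 progeny, 6 between D2 and D0 and 4 between D6 and D2. With 1 fit of all 57 libraries the counts were 0 among D6 progeny, 3 between D2 and D0, 1 between D6 and D2 and 1 between progeny and sorted cells at D4. The replicate block gave 5 among D4 progeny, where numbers pair the libraries, and 1 among sorted populations at D6, Lefty2 between Sox1-FoxA2+ and Sox1+FoxA2- cells, whose numbers also correlated. Progeny and sorted libraries share only a number; there the block took the Lefty1 difference at D4 to an adjusted p of 0.043, called Id1, Id2 and Id3 within Sox1+FoxA2+ cells at D4 (3 calls for 0) and ended the Lefty2 call within Sox1+FoxA2+ cells at D6 (0 for 1). It changed no other call of a member. Leaving out libraries gave 0 to 0 calls among sorted populations of each day, between D2 and D0 and between D6 and D2, 0 to 2 among D4 progeny, 3 to 9 among D6 progeny, and 1 to 4 at D4 and 3 to 5 at D6 between progeny and sorted cells. Over all genes, calls between Sox1-FoxA2+ and Sox1+FoxA2- progeny at D6 were 1428 in edgeR, 285 with all 57 libraries and 2290 in DESeq2, those between progeny and sorted cells 1743 at D4 (DESeq2 3907) and 3570 at D6 (DESeq2 6152, and 5258 without the library of few detected genes). Scaling by library totals moved 1 of 190 levels by over 1 SD, Bmp2 in D4 Sox1+FoxA2+ progeny from 199 to 181, and TMM scaling moved 0. The causes were not tested.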
